A study of Sciaenops ocellatus with 24 samples.

Results

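The highest concentration of slick oil was set against its own control. The comparison used 6 of the 24 libraries of the series, the 3 libraries at slick 5.00% and the 3 slick controls, with every miRNA name in their count table. Slick oil was crude oil of the Deepwater Horizon spill that was collected, already weathered, by skimming the Gulf surface. Oil was blended into seawater at high energy (a HEWAF preparation), and the exposed larvae were kept in seawater holding 5.00% of it by volume. The controls had 0% of it. Each library was small RNA of pooled whole red drum (Sciaenops ocellatus) larvae at 48 hours post fertilization. Embryos of all groups came from brood stock tanks and were treated with formalin before exposure, so the controls carried that treatment too. Each group had 3 libraries, and n = 3 holds for every group value below. The labels do not state whether replicates were separate spawns or tanks. The p-values therefore measure the spread among these samples only, and that spread may be technical.

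microRNAs are short RNAs that pair with messenger RNAs through their seed, a stretch near their 5′ end, and lower the translation or stability of those messages. Many are made in 1 tissue or cell type, so the microRNAs of a whole larva carry the mark of its nerve, muscle, blood, skin and sense organs. In fish larvae, crude oil is known for harm to the developing heart, circulation, eye and brain. In bulk RNA of whole larvae, fewer cells of a type and less RNA per cell cannot be told apart, and this holds for every result below.

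The reads were counted under mature miRNA names of many species, because the names come from miRBase and none is a red drum name. The prefix gives the species of the name, such as ssa for Atlantic salmon, dre for zebrafish and ola for medaka, and the arm (5p or 3p) in a name was not checked. Of the names listed in the table, 149 had at least 10 counts in at least 3 of the 6 libraries and were tested, and the remaining 47 were not tested. Of the 149, 109 were counted in every library, and 40 were at 0 in 1 or more. The table lists only names with at least 1 count in control 1, so a miRNA seen only in exposed larvae would not be in it.

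The total count was 8000563 to 8535913 in the controls and 2820454 to 4346165 in the exposed libraries. Every exposed library was shallower than every control, so depth and exposure cannot be told apart by group. Per library, 0, 54 and 39 of the listed names were at 0 in the controls and 61, 56 and 54 in the exposed libraries. The names counted in every library held 77.3% to 93.7% of a library's counts. Levels are given below as CPM, which are counts per 1000000 of a library's TMM-scaled total over these names. A single count was worth 0.115 to 0.161 CPM in the controls and 0.248 to 0.384 CPM in the exposed libraries.

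The most abundant names of the pool were not called at 5.00% slick oil. aca-miR-9-5p, a miRNA of neural progenitors, took 31.5% ± 3.86 of the counts of a control (SD) and 33.7% ± 2.16 of an exposed library. ssa-miR-206-5p, a skeletal muscle miRNA, took 14.9% ± 0.91 and 14.2% ± 2.78. Their log2 fold changes were 0.16 ± 0.15 (SE) and 0.00 ± 0.23, with adjusted p = 0.586 and 0.987 (edgeR). ola-miR-21, which is known to rise with tissue injury in fish and mammals, stood at 64784, 58858 and 58267 CPM in the controls and at 83374, 73825 and 85689 CPM with exposure. The exposed libraries of ola-miR-21 were all above the controls, and its log2 fold change of 0.42 ± 0.15 missed the threshold (adjusted p = 0.152).

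Among the 109 names counted in every library, 3 were higher and 3 were lower with exposure. These were ssa-miR-22b-5p, ssa-miR-8159-5p and efu-miR-27b on the higher side and ssa-miR-144-3p, dre-miR-124-4-5p and ssa-miR-18a-5p on the lower side. A call is a Benjamini-Hochberg adjusted p under 0.05 in edgeR's quasi-likelihood test, and 5.5% of the names were called, 2.75% in each direction. An unadjusted p under 0.05 was found for 23 names, or 21.1%. All exposed libraries lay above all controls for 14 names (12.8%) and below them for 12 (11%). With scaling to library totals alone there were 0 higher and 3 lower names, and the median log2 fold change of the 109 names moved from 0.01 to -0.13. The count of 6 depended on single libraries, with 1 call when control 1 was left out, 15 when control 2 was and 1 when control 3 was. It was 3, 3 and 1 when exposed library 1, 2 or 3 was left out.

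**Figure D1:**
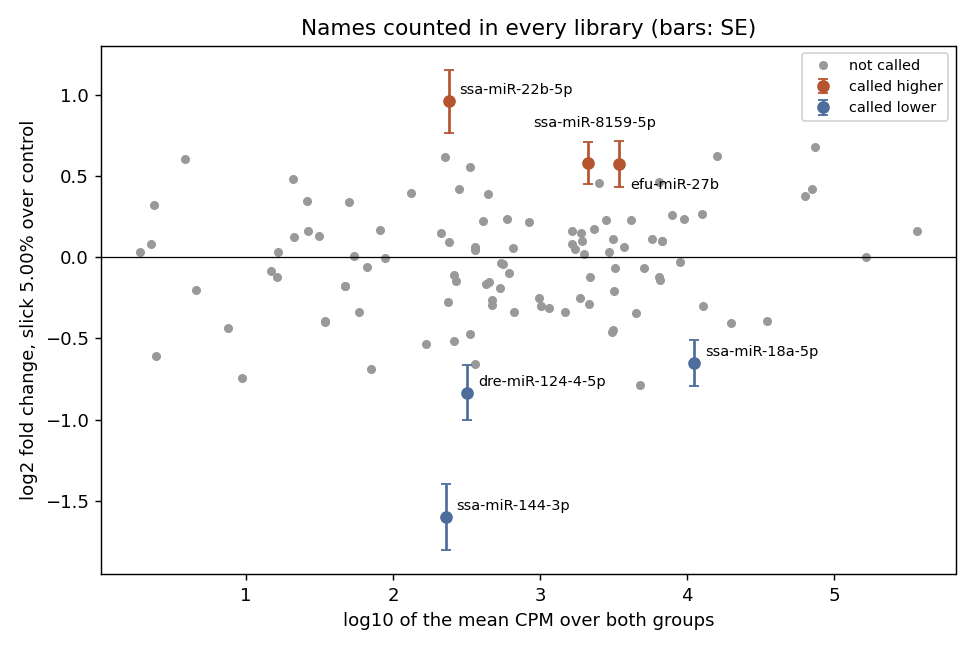
Each point is 1 of the 109 names counted in every library, with the log10 of its mean CPM over both groups on the x axis and its log2 fold change at slick 5.00% over the control on the y axis. Bars on the 6 called names are the SE. ssa-miR-144-3p at -1.60 lies below every other name, and the names not called lie between -0.79 and 0.68.

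ssa-miR-144-3p showed the largest change in size of the 109 names. miR-144 is made in red blood cell precursors from a transcript it shares with miR-451, and acts in hemoglobin and red cell development in zebrafish. It stood at 322, 385 and 322 CPM in the controls and at 106.3, 141.5 and 90.1 CPM with exposure. The groups were far apart, and the highest exposed library was under the lowest control. The name fell by 1.60 ± 0.20 on the log2 scale, from 343 ± 36.1 to 113 ± 26.3 CPM (SD, adjusted p = 0.00218, edgeR). Tallies of settings and fits below refer to names counted in every library unless all names are stated. Among those names the call was also made in each of 14 alternative settings and in each of 6 fits without 1 library. Over all tested names it was made in 7 of 13 alternative settings and in 1 of 6 fits without a library, and the adjusted p was 0.165, 0.1404 and 0.264 when control 1, 2 or 3 was dropped. It was 0.1218 and 0.0774 when exposed library 1 or 3 was dropped. chi-miR-451-5p, of the same transcript, was low in both groups, at 15.5, 19.02 and 16.7 CPM in the controls and 11.5, 22.1 and 12.4 CPM with exposure. Its groups overlapped, and its log2 fold change was -0.12 ± 0.27 (adjusted p = 0.821).

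The list of blood cells and vessels had 11 names counted in every library, of which 0 were higher and 1 was lower, ssa-miR-144-3p. The median log2 fold change of the list was -0.14, beside 0.01 over all 109 names. tgu-miR-126-5p, a miRNA of blood vessel lining cells, had a log2 fold change of -0.14 ± 0.13. ola-miR-142 and tgu-miR-142-5p, names of a white blood cell miRNA with the same counts within 1%, each had -0.17 ± 0.21. tgu-miR-155-5p, a miRNA of activated immune cells, stood at 22.8 ± 2.29 CPM in the controls and 29.1 ± 4.66 CPM with exposure (adjusted p = 0.356). hsa-miR-130b-5p, the most abundant of the list after exposure, had a log2 fold change of 0.46 ± 0.20, with overlapping groups and adjusted p = 0.208.

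**Figure D2:**
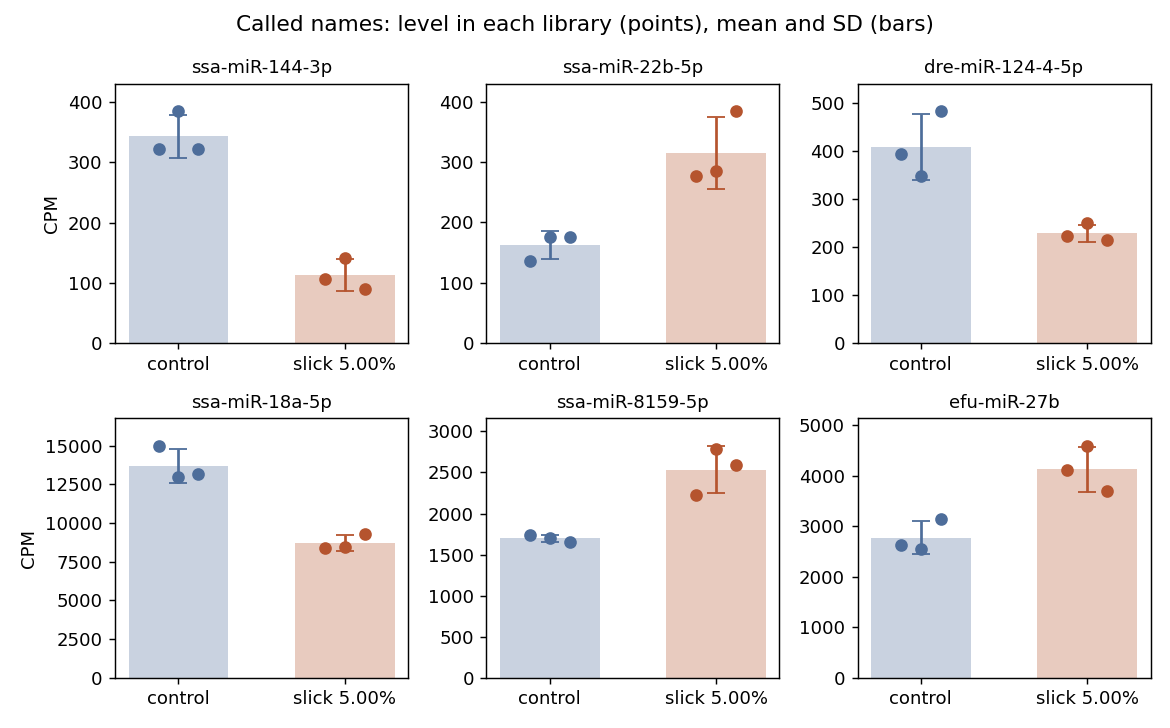
Level in CPM (y axis, from 0) of the 6 called names in each control and each slick 5.00% library (points), with the group mean (bar) and SD (error bar, n = 3). In each panel the 3 exposed libraries lie all above or all below the 3 controls.

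A name of a neuronal miRNA was lower with exposure. dre-miR-124-4-5p belongs to miR-124, which is made in neurons and represses non-neuronal messages. It stood at 394, 349 and 482 CPM in the controls and 222.6, 249 and 214.8 CPM with exposure, with no overlap. On the log2 scale it fell by 0.83 ± 0.17 (adjusted p = 0.0286, edgeR) and was called in 10 of 14 alternative settings but in 1 of 6 fits without a library. ola-miR-124-5p, a second miR-124 name, stood at 421, 379 and 523 CPM in the controls and 302.1, 291 and 244 CPM with exposure. These groups did not overlap either, and the log2 fold change of -0.66 ± 0.17 just missed the threshold (adjusted p = 0.0554). ola-miR-124-5p was called in 4 of 14 alternative settings and 1 of 6 fits without a library. Over all names, both miR-124 names summed gave -0.66 ± 0.17 (adjusted p = 0.133, edgeR). With the highest miR-124 name kept the value was -0.63 ± 0.17 (adjusted p = 0.157, edgeR). Neither was a call.

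The nervous system list had 10 such names, 0 higher and 1 lower, with 5 positive and 5 negative log2 fold changes and a median of -0.09. aca-miR-132-5p and ssa-miR-212a-5p belong to a family induced by neuronal activity in mammals. aca-miR-132-5p stood at 288, 326 and 297 CPM in the controls and 185, 227 and 225 CPM with exposure, all below the controls. Its log2 fold change was -0.52 ± 0.16 (adjusted p = 0.094). Fits over all names have their own CPM scale, so their levels cannot be set against those just given. Over all names, both miR-132 names summed gave 274, 305 and 263 CPM in the controls and 174, 259 and 267 CPM with exposure. Those groups overlapped, and the log2 fold change was -0.27 ± 0.20 (adjusted p = 0.651, edgeR). With the highest miR-132 name kept it was -0.49 ± 0.13 (adjusted p = 0.157). ssa-miR-212a-5p had -0.48 ± 0.20, with overlapping groups. The other miR-212 name, aca-miR-212-5p, had -0.15 ± 0.15 over all names with the highest name per miRNA kept, also with overlapping groups. mdo-miR-128a-5p, a miRNA enriched in brain, had a positive value of 0.37 ± 0.21, and its level was 55354 ± 14437 CPM in the controls and 71772 ± 9172 CPM with exposure. Other neuronal names were near 0, such as ssa-miR-137-5p with 0.01 ± 0.20 and dre-miR-153b-5p with 0.04 ± 0.17.

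miRNAs of the sense organs were not called. chi-miR-96 and chi-miR-182 come from a cluster made in hair cells, photoreceptors and other sensory cells. chi-miR-96 stood at 5615, 7911 and 4739.9 CPM in the controls and 3487, 4619 and 2484 CPM with exposure. All exposed libraries of chi-miR-96 were lower, and its log2 fold change was -0.79 ± 0.25 (adjusted p = 0.104). chi-miR-182 had a value of -0.41 ± 0.18 with overlapping groups (adjusted p = 0.219). The third miRNA of that cluster, mmu-miR-183-5p, was counted 358399, 0 and 0 times in the controls and 83979, 184513 and 0 times with exposure, so no level can be read from that name. ola-miR-184-5p, of lens and cornea, and ola-miR-204, of lens, retina and pigment epithelium, had log2 fold changes of -0.12 ± 0.14 and 0.26 ± 0.19. The list had 4 names counted in every library, 0 called, with a median of -0.26.

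The muscle and skin lists held no call. In muscle 3 names were counted in every library, with a median of -0.15, and the widest of them was ggo-miR-499a, a miRNA encoded within a myosin gene, with -0.34 ± 0.16 (adjusted p = 0.267). rno-miR-133b-5p, of heart and skeletal muscle, had -0.15 ± 0.17. In skin and epithelia 2 names went apart in opposite directions without passing the threshold. pma-miR-203a-3p, which restrains growth of skin progenitors in mouse, stood at 13840.4, 12290.1 and 11765 CPM in the controls and 21785, 16062 and 20485 CPM with exposure. All its exposed libraries were higher, with a log2 fold change of 0.62 ± 0.17 (adjusted p = 0.0567). pma-miR-203a-3p was called in 5 of 14 alternative settings and 1 of 6 fits without a library. cgr-miR-205, another epithelial miRNA, stood at 3357, 3187 and 4298 CPM in the controls and 2599.7, 2518 and 2829 CPM with exposure. All its exposed libraries were lower, with -0.45 ± 0.15 (adjusted p = 0.107). sha-miR-200a, which keeps cells epithelial, had -0.03 ± 0.14.

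ssa-miR-18a-5p was lower with exposure, at 14958, 12957 and 13148 CPM in the controls and 8373, 8465 and 9314 CPM in the exposed libraries. miR-18a is a member of the miR-17-92 cluster, which promotes proliferation in development. The groups did not overlap, and on the log2 scale the name fell by 0.65 ± 0.14 (adjusted p = 0.032, edgeR). It was called in 12 of 14 alternative settings and 1 of 6 fits without a library. Of the 10 names of the cluster and its paralogs, 0 were called higher and 1 lower, this one, and the median was -0.02. ola-miR-17 had -0.46 ± 0.17 and ola-miR-106a -0.31 ± 0.19, both with overlapping groups. sha-miR-92a, which stood at 11554 ± 1541 CPM in the controls and 13893 ± 1607 CPM with exposure, had a value of opposite sign, 0.27 ± 0.17. chi-miR-18b-5p was at -0.00 ± 0.20, and hsa-miR-25-5p at 0.11 ± 0.16. ola-miR-19b had 0.06 ± 0.17, as did ssa-miR-19c-4-5p, whose counts were within 1% of it.

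The miR-23/24/27 cluster, which acts in vessels, muscle and craniofacial cartilage in fish and mammals, held 1 higher name. efu-miR-27b stood at 2623, 2547 and 3147 CPM in the controls and 4114, 4588 and 3691 CPM with exposure. The groups were apart, and it rose by 0.58 ± 0.14 on the log2 scale (adjusted p = 0.0464, edgeR), with 8 of 14 alternative settings and 1 of 6 fits without a library calling it. A second miR-27b name, aca-miR-27b-5p, had counts within 1% of it in 2 of the 6 libraries and was at 0 in the other 4. With the counts of both names summed, the log2 fold change was 0.69 (adjusted p = 0.372), not a call. That sum added the near-equal counts of the second name in control 1 and exposed library 1 only. Over all names these libraries stood at 2261 and 3870 CPM with the highest name kept and at 4199 and 7726 CPM with the sum. oar-miR-23b stood at 275, 259 and 272 CPM in the controls and 396, 365 and 424 CPM with exposure. It just missed the threshold, with 0.55 ± 0.14 and adjusted p = 0.0554. Of the 7 names of the cluster, 6 had positive log2 fold changes, beside 56 of all 109 names. For 4 of the 7 all exposed libraries were above all controls, beside 14 of the 109 (12.8%). The median was 0.42 beside 0.01 over all names (0.28 beside -0.13 with library totals alone). The exception was mdo-miR-24-3p with -0.04 ± 0.28, while fru-miR-24-5p had 0.23 ± 0.14. These 2 names had the same control mean, 2617, in the authors' deposited table. Over all names, the exposed libraries stood at 595, 614 and 593 CPM with the highest miR-24 name kept. With both summed they stood at 874, 1231 and 1185 CPM, each on the scale of its own fit. The 2 names thus parted mainly in exposed library 1, and the exception rests on that library. The largest of the 7 values was 0.62, for ola-miR-27d-3p. Over all names, with the 2 miR-27d names joined, the value was -0.03 ± 0.51 (highest name kept) or -0.10 ± 0.54 (summed). Several of the 7 are names of 1 miRNA, so the tallies above do not count separate miRNAs.

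ssa-miR-22b-5p rose the most of the called names. In mammals miR-22 is abundant in heart and muscle and acts in cardiac growth. It stood at 135, 176 and 175 CPM in the controls and 278, 285 and 384 CPM with exposure, with every exposed library above every control. Its log2 fold change was 0.96 ± 0.19 (adjusted p = 0.0286, edgeR), and it was called in 11 of 14 alternative settings and 3 of 6 fits without a library. ssa-miR-8159-5p, a name from Atlantic salmon, stood at 1742, 1698 and 1648 CPM in the controls and 2224, 2786 and 2595 CPM with exposure. It rose by 0.58 ± 0.13 on the log2 scale (adjusted p = 0.0325) and was called in 11 of 14 alternative settings and 2 of 6 fits without a library. With scaling to library totals alone, none of the 3 higher names passed the threshold, at log2 fold changes of 0.80 (adjusted p = 0.0826) for ssa-miR-22b-5p, 0.44 (adjusted p = 0.116) for ssa-miR-8159-5p and 0.44 (adjusted p = 0.17) for efu-miR-27b.

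Among 8 names of miRNAs known mainly from fish, ssa-miR-8159-5p was the 1 call, and the median was 0.10 (-0.04 with library totals alone). ccr-miR-722 and ssa-miR-722-5p, both among the 8, had counts within 1% of each other. ola-miR-731 and ola-miR-462, which share a locus induced by interferon in fish, had 0.34 ± 0.25 and 0.03 ± 0.26. dre-miR-2187-5p was low, at 11.6, 11.6 and 12.2 CPM in the controls and 4.22, 10.4 and 5.65 CPM with exposure. All its exposed libraries were lower, and its log2 fold change of -0.74 ± 0.31 was not called (adjusted p = 0.204).

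The miR-181 family, which acts in lymphocytes and in axon growth, had 3 negative values of 4, 0 calls and a median of -0.35. hsa-miR-181b-2-3p stood at 70.1, 102 and 92.3 CPM in the controls and 58.7, 58.3 and 46.3 CPM with exposure, without overlap, and had -0.69 ± 0.21 (adjusted p = 0.0883). ola-miR-181a-5p, the most abundant of the family, stood at 40821, 33748 and 44759 CPM in the controls and 30779.9, 30472 and 29747 CPM with exposure. It too was lower in every exposed library, with -0.39 ± 0.16 (adjusted p = 0.204). ssa-miR-181b-5p had 0.10 ± 0.16.

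No name of the Hox cluster, let-7, miR-430, miR-99 (with miR-100 and miR-125), cartilage, pancreas, liver and damage lists was called among the names counted in every library. The Hox cluster miRNAs lie among the Hox genes that pattern the body axis. Their 5 names had a median of 0.23, with mdo-miR-10b-5p at 0.46 ± 0.19 and tgu-miR-196 at -0.07 ± 0.19. let-7, which rises as tissues mature, had 5 names with a median of 0.10, which was -0.04 with library totals alone. ola-miR-430a, a miRNA that clears maternal messages in early zebrafish embryos, had 0.06 ± 0.16, with a list median that also turned negative, to -0.09. The pancreas and cartilage lists turned sign in the same way, from 0.04 to -0.10 and from 0.06 to -0.08. ipu-miR-375, of pancreatic islets, had -0.07 ± 0.14, and aca-miR-199a-5p, of connective tissue, 0.24 ± 0.14. Liver and gut had 2 names with a median of -0.31, and damage and hypoxia had 2 with 0.27. The miR-99 family had 2 with 0.15, and the most abundant was chi-miR-125b-5p at 0.16 ± 0.19. The miR-15/16 family had 0 names counted in every library and 3 in the fit to all names, of which 0 were called.

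**Figure D3:**
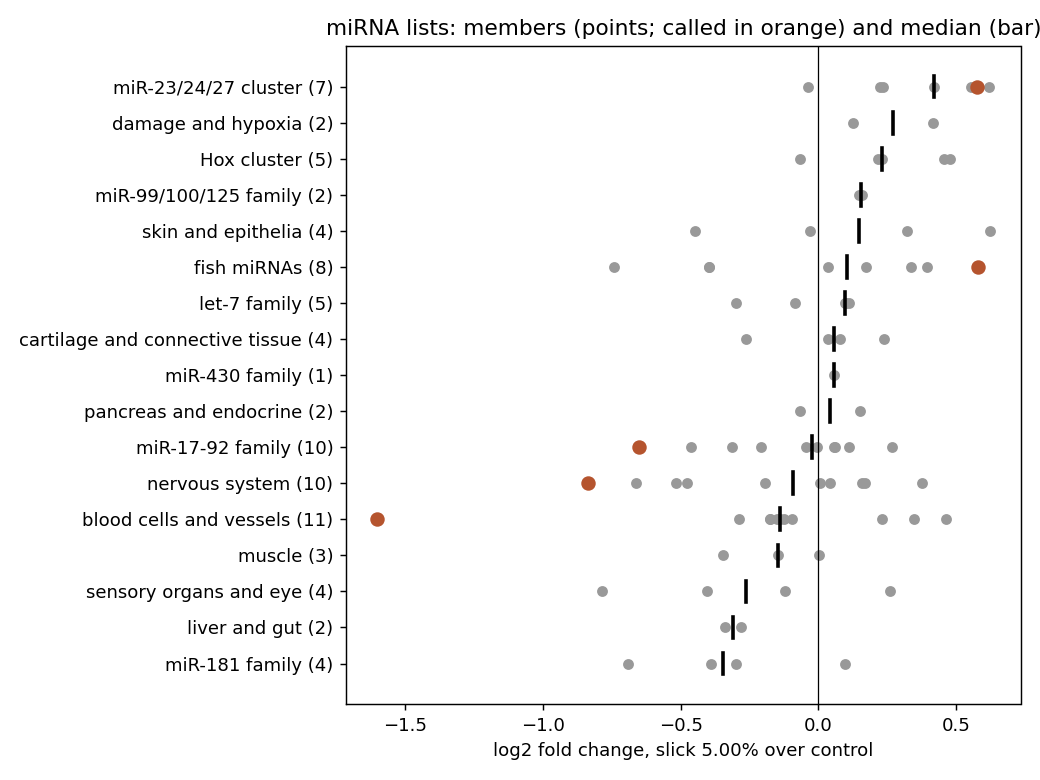
Log2 fold change at slick 5.00% over the control (x axis) of each name counted in every library (points), by list (rows, with the number of such names), with the 5 called names of the lists in orange and the list median as a bar. The miR-23/24/27 cluster has the highest median, 0.42, and the miR-181 family the lowest, -0.35.

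Over all 149 tested names, 0 were higher and 3 were lower with exposure, 0% and 2.01%. At an unadjusted p under 0.05 there were 20 names (13.4%), and DESeq2 called 10 higher and 11 lower. The biological coefficient of variation in this fit was 125.1%, against 21.1% among names counted in every library. The 3 lower names were ssa-miR-144-3p (adjusted p = 0.0338, edgeR) and the names ipu-miR-222a and oha-miR-1306-5p, which were at 0 in every exposed library. The other names called among those counted in every library were rarely called over all names. Of 13 alternative settings, 4 called ssa-miR-18a-5p and 2 called ssa-miR-8159-5p. For ssa-miR-22b-5p, dre-miR-124-4-5p and efu-miR-27b it was 1 each. Each of these names was called in 0 of 6 fits over all names without 1 library. The count was 0 when any of the 3 controls was left out and 6 when exposed library 2 was. ipu-miR-222a and oha-miR-1306-5p were counted only in controls, so without a control they failed the filter of 10 counts in 3 libraries. Their loss there was fixed by that filter. Both were called in each of 3 fits without an exposed library, but those fits still set high controls against zeros. Such calls were close to fixed by the choice of names and are no measure of stability. A name at 0 in every control could not be listed, so the mirror case could not arise among higher names.

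ipu-miR-222a was counted 21308, 24571 and 28851 times in the controls and 0 times in each exposed library. With 3 counts over the exposed group taken as a floor, it was at least 10241-fold lower (adjusted p = 0.000645, edgeR over all names). miR-222 acts in vessel growth and cell division. The zeros hold for that name and not for the miRNA. ssa-miR-222a-5p was counted 24297, 28530 and 33445 times in the controls and 11276, 18162 and 12248 times with exposure, with a log2 fold change of 0.23 ± 0.11 (adjusted p = 0.286). In the series ipu-miR-222a was also at 0 in 1 of 3 libraries at 2.50% slick oil, in 2 of 3 source controls and in 3 of 3 libraries at 0.54% source oil.

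oha-miR-1306-5p was counted 149, 151 and 118 times in the controls and 0 times in each exposed library. It was at least 57.3-fold lower against the same floor (adjusted p = 0.0338, edgeR over all names). It was at 0 in 1 of 3 libraries each at 1.25% and 2.50% slick oil. The part that the read assignment between names had in these zeros was not tested.

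Zeros beside high counts were common. Over the 149 names the groups did not overlap for 31 (20.8%), with exposed libraries above the controls for 16 (10.7%) and below for 15 (10.1%). Of the 149 tested names 40 had a 0, 25 in a control and 36 in an exposed library, and 25 of them had at least 1000 counts in another library. Every listed name was counted in control 1, so that control could hold no 0, while any exposed library could. The exposed libraries were also shallower, so the 25 and the 36 cannot be compared as a result of exposure. tch-miR-122-5p, the main miRNA of hepatocytes, was counted 79038, 90871 and 78041 times in the controls and 0, 36583 and 0 times with exposure (adjusted p = 0.946). ola-miR-128 was counted 261002, 546953 and 0 times in the controls and 0, 0 and 200722 times with exposure, while mdo-miR-128a-5p was counted in all 6. Of 8 pairs of names with counts within 1% of each other wherever both were counted, 4 had a library with 1 name at 0 while the other was counted. aca-miR-26-5p was counted in every library, yet control 2 had 7930 counts against 501772 and 767498 in the other controls, and its log2 fold change was 0.68 ± 1.00.

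The authors' deposited table, made with DESeq2 per the submitters' processing notes, called 10 higher (5.26%) and 11 lower (5.79%) of 190 names at this concentration. All 6 calls among names counted in every library and all 3 over all names were among these 21. Both rest on the same libraries. The 21 also included names not called among those counted in every library. Higher ones included ola-miR-21, pma-miR-203a-3p, oar-miR-23b, aca-miR-199a-5p and ssa-miR-222a-5p (FDR 6.2e-07 to 0.00785, DESeq2). Lower ones included ola-miR-124-5p, aca-miR-132-5p, hsa-miR-181b-2-3p, ola-miR-181a-5p, cgr-miR-205 and ola-miR-194-5p (FDR 9.7e-05 to 0.0152, DESeq2). In the authors' deposited table ssa-miR-144-3p had means of 1629 and 532 normalised counts in control and exposed larvae and a log2 fold change of -1.55. ssa-miR-22b-5p had a log2 fold change of 0.93 in the authors' deposited table, and dre-miR-124-4-5p one of -0.82.

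The second question was whether larvae at 5.00% differed from those at the lower slick concentrations, 1.25% and 2.50%. All were set against the same 3 controls, so only their own values are given side by side, on the scale of a fit to the 12 slick libraries. Of the 100 names counted in all 12, 0 differed between 5.00% and 1.25% (0%) and 0 between 5.00% and 2.50% (0%) in edgeR. At an unadjusted p under 0.05 there were 8 (8%) and 13 (13%), and DESeq2 called 1 and 0.

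ssa-miR-144-3p stood at 398, 421 and 373 CPM in the controls, 395, 305 and 277 CPM at 1.25%, 197, 288 and 127.7 CPM at 2.50% and 131.7, 165 and 114 CPM at 5.00%. Every 5.00% library was below every 1.25% library, and the 5.00% and 2.50% libraries overlapped. The log2 difference of 5.00% from 1.25% was -1.25 ± 0.29 (adjusted p = 0.0659), and missed the threshold in edgeR. It was a call at adjusted p = 0.00244 with DESeq2, 0.0164 with library totals alone and 0.049 with a replicate block. From 2.50% the log2 difference was -0.57 ± 0.28 (adjusted p = 0.361).

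ssa-miR-22b-5p stood at 167, 192.2 and 202 CPM in the controls, 132.5, 207 and 273 CPM at 1.25%, 208.3, 311 and 97.8 CPM at 2.50% and 344, 331 and 487 CPM at 5.00%. The 5.00% libraries were above all others. The log2 difference was 0.92 ± 0.37 (adjusted p = 0.461) from 1.25% and 0.92 ± 0.37 (adjusted p = 0.288) from 2.50%. dre-miR-124-4-5p stood at 486, 381 and 558 CPM in the controls, 555, 367 and 357 CPM at 1.25%, 395, 468 and 699 CPM at 2.50% and 276, 289 and 272 CPM at 5.00%. The 5.00% libraries were below the 9 others, with log2 differences of -0.61 ± 0.26 (adjusted p = 0.461) from 1.25% and -0.90 ± 0.27 (adjusted p = 0.288) from 2.50%.

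For the other called names the 5.00% libraries overlapped those of a lower concentration. ssa-miR-18a-5p stood at 13407, 10143 and 6176 CPM at 2.50% and 10374, 9844 and 11806 CPM at 5.00%, with a log2 difference of 0.11 ± 0.27 (adjusted p = 0.78). efu-miR-27b stood at 3342, 5629.9 and 5571 CPM at 1.25% and 5097, 5336 and 4678 CPM at 5.00%, a difference of 0.06 ± 0.23 (adjusted p = 0.952). ssa-miR-8159-5p stood at 2545, 2514 and 2882 CPM at 1.25% and 2756, 3240.1 and 3289 CPM at 5.00%, a difference of 0.23 ± 0.24 (adjusted p = 0.842). A p that misses the threshold does not show that these concentrations act alike. Without library 1 at 2.50%, sha-miR-135a was called lower at 5.00% than at 2.50%, with a log2 difference of -1.19 (adjusted p = 0.0194).

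**Figure D4:**
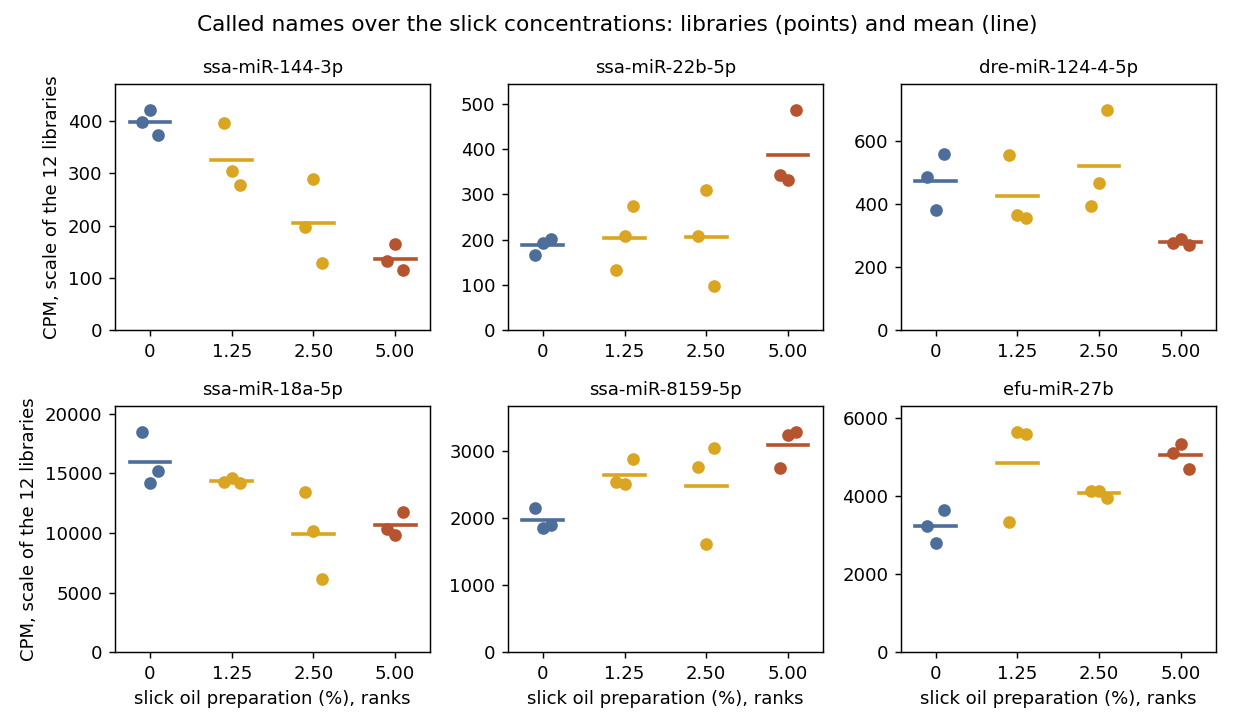
Level in CPM (y axis, from 0, scale of the 12 slick libraries) of the 6 called names at 0, 1.25, 2.50 and 5.00% slick oil preparation (x axis, ranks, not to scale). Points are libraries and lines are group means. The mean of ssa-miR-144-3p is lowest, and that of ssa-miR-22b-5p highest, at 5.00%.

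The last question was whether the response to 5.00% slick oil differed from that to 0.54% source oil, the highest concentration of the other oil. Source oil was a pipeline oil that stood in for unweathered oil of the well, and was prepared in the same way. Its larvae, of the same age, had their own 3 controls. The percent loadings differ, so oil and concentration cannot be told apart. The slick response minus the source response was tested as an interaction in 1 edgeR fit to 12 libraries. It was called for 27 of 107 names (25.2%), 13 higher (12.1%) and 14 lower (13.1%) in the slick response. With scaling to library totals alone the calls were 5 higher and 35 lower, and the median difference of all names was -0.36 in place of 0.00. Of the 27, 19 stayed calls in the same direction under that scaling and 0 changed sign. The 8 calls lost were all higher in the slick response and were ola-miR-100, sha-miR-92a, ssa-miR-22b-5p, hsa-miR-130b-5p, sha-miR-10b, tur-miR-10-5p, oar-miR-30d and ola-miR-731. The count was 16 without slick control 3, and 4 when names at 0 in some libraries were kept in the fit. Responses had opposite signs for 22 of the 27, but names picked for a large difference favour opposite signs. The slick response was itself called for 5 of the 27 in this fit, and the source response for 16. Of the 105 names fitted in both separate comparisons, 47 had the same sign. At an unadjusted p under 0.05 there were 43 differences (40.2%). In its own 6-library fit, 0.54% source oil gave 21 higher (17.6%) and 26 lower (21.8%) of 119 names against its control, 47 in all (39.5%).

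The lowest p-values of the difference included names of eye and brain miRNAs that were lower with source oil, and both miR-124 names. ola-miR-204 stood at 6720.0, 8373 and 8865 CPM in the slick controls and 8545, 11481 and 9044 CPM at 5.00%, against 10705, 10219.6 and 10391 CPM in the source controls and 5254, 6319.8 and 7050.2 CPM at 0.54%. It was lower in every source-exposed library, and the slick groups overlapped. The difference of its responses was 1.03 ± 0.21 (adjusted p = 0.00887) on the log2 scale. ola-miR-184-5p had a slick response of -0.08 ± 0.15 and a source response of -1.06 ± 0.15, a difference of 0.99 ± 0.21 (adjusted p = 0.00887). mdo-miR-128a-5p had 0.41 ± 0.21 and -0.79 ± 0.21, a difference of 1.20 ± 0.30 (adjusted p = 0.0128).

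dre-miR-124-4-5p was lower under slick oil. It stood at 434, 387 and 535 CPM in the slick controls and 251, 261 and 265 CPM at 5.00%, and at 317, 308 and 317 CPM in the source controls and 418, 307 and 308 CPM at 0.54%. Its responses were -0.80 ± 0.16 to slick oil and 0.13 ± 0.16 to source oil, a difference of -0.94 ± 0.22 (adjusted p = 0.0128). ola-miR-124-5p differed by -0.92 ± 0.21 (adjusted p = 0.0122). ssa-miR-22b-5p responded by 1.01 ± 0.20 to slick oil and 0.03 ± 0.20 to source oil, a difference of 0.98 ± 0.28 (adjusted p = 0.0178). With library totals alone that difference was 0.61 (adjusted p = 0.0713), not a call. chi-miR-96 responded by -0.77 ± 0.18 and 0.11 ± 0.18, a difference of -0.88 ± 0.26 (adjusted p = 0.0178).

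ssa-miR-144-3p fell with both oils. It stood at 355, 426.7 and 357 CPM in the slick controls and 119.8, 148 and 111 CPM at 5.00%, and at 215.7, 233 and 266 CPM in the source controls and 121.6, 120.1 and 120.3 CPM at 0.54%. In each experiment every exposed library was below every control. The responses were -1.58 ± 0.15 and -0.98 ± 0.15, and the difference of -0.60 ± 0.21 (adjusted p = 0.046) was called in 2 of 6 fits without 1 slick library. ssa-miR-18a-5p, ssa-miR-8159-5p and efu-miR-27b had differences of -0.41 ± 0.18 (adjusted p = 0.0944), 0.19 ± 0.17 (adjusted p = 0.415) and 0.26 ± 0.19 (adjusted p = 0.302), none of them calls.

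In the list of the miR-17-92 cluster and its paralogs, 1 of 10 names was higher and 4 were lower in the slick response, beside 27 of 107 names called in all (25.2%). With library totals alone 0 were higher and 7 lower. Other lists had calls as well. Sensory organs and eye had 2 higher and 1 lower of 4 names, and the Hox cluster had 3 higher and 0 lower of 5. The fish miRNAs had 1 higher and 3 lower of 8, counting both miR-722 names. ola-miR-17 had responses of -0.43 ± 0.17 to slick and 0.56 ± 0.17 to source oil, and ola-miR-106a had -0.27 ± 0.18 and 0.57 ± 0.18. ola-miR-19b had 0.08 ± 0.15 and 0.81 ± 0.15. The remaining lower name, ssa-miR-19c-4-5p, had counts within 1% of ola-miR-19b in the 6 slick libraries, so these 2 are not separate results. sha-miR-92a went the other way, with 0.31 ± 0.16 and -0.50 ± 0.16. For each of these the difference was a call, which sha-miR-92a lost with library totals alone (0.44, adjusted p = 0.108). Not called were oan-miR-20a-5p with a difference of -0.63 ± 0.24 (adjusted p = 0.0653), dre-miR-93 with -0.63 ± 0.27 (adjusted p = 0.0944), hsa-miR-25-5p with 0.51 ± 0.23 (adjusted p = 0.108) and chi-miR-18b-5p with -0.21 ± 0.24 (adjusted p = 0.503). Across the 105 names fitted in both comparisons, the slick and source log2 fold changes had Pearson's r = 0.06 and Spearman's rho = -0.02, and 47 names had the same sign. That is a description across names, some of which share reads, and the oils have separate controls.

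**Figure D5:**
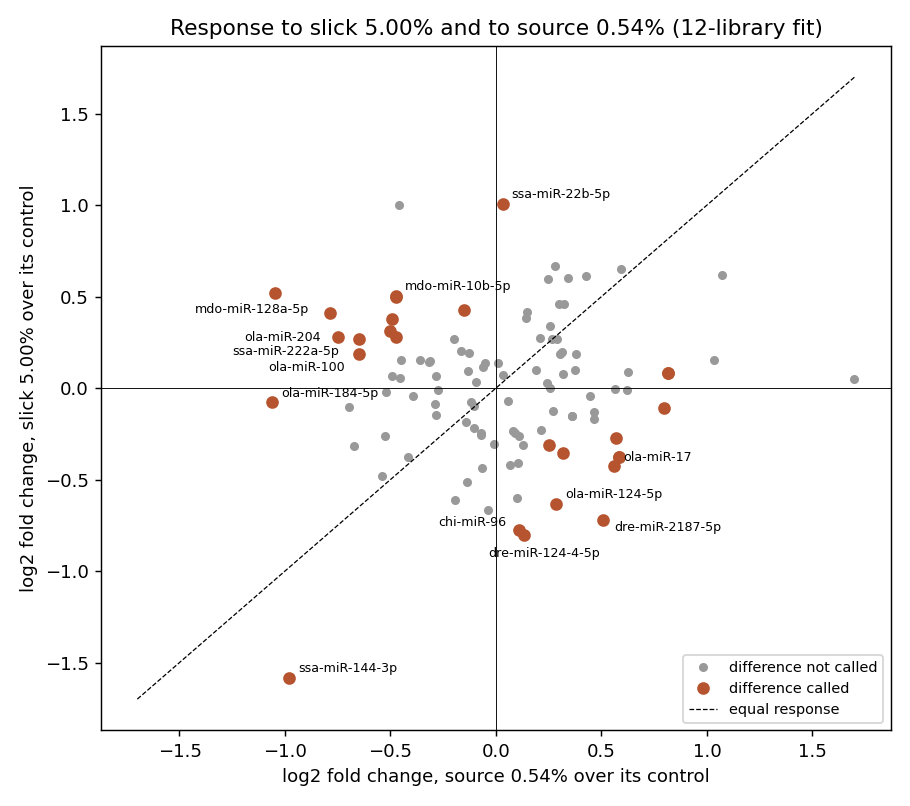
Log2 fold change at source 0.54% over its control (x axis) and at slick 5.00% over its control (y axis) of the 107 names, from the joint fit of 12 libraries. Orange points are the 27 called differences, and the dashed line marks equal responses. ssa-miR-144-3p lies low on both axes, while ola-miR-184-5p is low on the source axis and near 0 on the slick axis.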

How the data were processed

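Per the labels, total RNA of pooled whole larvae was extracted with miRNeasy, libraries were prepared with NEBNext small RNA reagents, and sequencing used a NextSeq 500. The authors deposited a table of raw read counts per mature miRBase name. Which aligner and miRBase release were used, and how reads matching several names were assigned, is not given in the sources used here. The authors also deposited their DESeq2 result, with group means as a signal (counts over size factors, from the values), a score that is the difference of the means, a log2 fold change and a p-value with its FDR. All columns were matched to samples, with 0 unmatched.

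Counts were tested with edgeR 4.0.16 in R 4.3.3, with TMM scaling, glmQLFit, glmQLFTest and Benjamini-Hochberg adjustment over all names tested. A name needed 10 counts in 3 libraries. A fit to all such names and a fit to names counted in every library are both given. The SE is the absolute log2 fold change over the square root of F. DESeq2 1.42.0 and limma 3.58.1 were alternatives. In fits across slick concentrations, 7 names whose control 1 counts differ between the deposited tables were left out. Scripts were tested on simulated data.

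Named were all called names, names at 0 throughout 1 group with at least 100 counts in each library of the other, and the 8 most abundant in the controls. Further named were up to 3 most abundant and all called names of each of 18 lists, up to 10 called names of each other contrast by p, and names changed by at least 1 on the log2 scale. Some names outside that rule were chosen after their values were seen. The names and lists were chosen with earlier results of these data known.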

Additional observations from a re-analysis of the deposited data

Results flagged for a closer look

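The response to 5.00% slick oil differed from the response to 0.54% source oil for 27 of 107 names, by a test of the difference itself (interaction in edgeR, adjusted p under 0.05 over the 107 names). Values are the slick log2 fold change minus the source log2 fold change, with SE, n = 3 in each of 4 groups.

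A higher value in the slick response, called also in each of 6 fits without 1 slick library, was found for ola-miR-204 (1.03 ± 0.21), ola-miR-184-5p (0.99 ± 0.21), ssa-miR-222a-5p (0.92 ± 0.23), mdo-miR-128a-5p (1.20 ± 0.30), ola-miR-100 (0.83 ± 0.21), mdo-miR-10b-5p (0.98 ± 0.25) and sha-miR-92a (0.81 ± 0.22). Other higher names were ssa-miR-22b-5p (0.98 ± 0.28), hsa-miR-130b-5p (0.97 ± 0.28), sha-miR-10b (0.75 ± 0.23), tur-miR-10-5p (1.57 ± 0.50), oar-miR-30d (0.58 ± 0.20) and ola-miR-731 (0.87 ± 0.31). They were called in 2 to 5 of those fits. These fits left out slick libraries only, so the tallies do not cover the dependence of the source response on single source libraries.

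Lower in the slick response and called in each of those 6 fits were ola-miR-124-5p (-0.92 ± 0.21), dre-miR-124-4-5p (-0.94 ± 0.22), ola-miR-17 (-0.98 ± 0.24), dre-miR-2187-5p (-1.23 ± 0.33), ccr-miR-722 (-0.96 ± 0.26) and ssa-miR-722-5p (-0.96 ± 0.26). The other lower names were ola-miR-181a-5p (-0.67 ± 0.19), chi-miR-96 (-0.88 ± 0.26), ola-miR-19b (-0.73 ± 0.21), ssa-miR-19c-4-5p (-0.73 ± 0.21), ola-miR-106a (-0.84 ± 0.25), rno-miR-133b-5p (-0.90 ± 0.29), ola-miR-135b (-0.56 ± 0.20) and ssa-miR-144-3p (-0.60 ± 0.21), which were called in 2 to 5 of them.

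At 12.1% higher and 13.1% lower the calls were spread over both directions with TMM scaling, while library totals alone gave 5 higher and 35 lower. The oils were given at different percent loadings in separate experiments, so oil, concentration and experiment cannot be told apart.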

How the results depend on the processing

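The 6 calls among names counted in every library became 3 with library totals alone, 1 with upper quartile scaling, 12 with DESeq2, 11 with robust dispersion, 1 in a fit to all 12 slick libraries and 10 without aca-miR-26-5p, an alternative chosen after seeing the data. Without 1 library they ranged from 1 to 15. The 3 calls over all names became 21 with DESeq2, 7 with limma-voom and 1 with no count filter. They became 0 in a fit to all 12 slick libraries and 1 with counts summed per miRNA number and letter. Without 1 library they ranged from 0 to 6, but ipu-miR-222a and oha-miR-1306-5p could not pass the count filter without a control. The 27 differences between the oils became 4 with the count filter only, that is with names at 0 in some libraries kept, and 16 to 36 without 1 slick library. Between 5.00% and 1.25% the 0 calls became 1 with library totals alone, 1 with DESeq2 and 1 with a replicate block, with 0 to 0 without 1 library. Between 5.00% and 2.50% they were 0 to 1 without 1 library. Direction was kept by ssa-miR-144-3p, ssa-miR-22b-5p, dre-miR-124-4-5p, ssa-miR-18a-5p, ssa-miR-8159-5p and efu-miR-27b in each of 14 alternatives and 6 fits without a library, all among names counted in every library. Their groups did not overlap, so a changed sign was hardly possible in the fits without a library. The calls held in 1 to 3 of those 6 fits, apart from ssa-miR-144-3p with 6. The sign of miR-222a depended on how its 2 names were joined. Over all names the log2 fold change was 0.26 (adjusted p = 0.258, edgeR) when the highest name per miRNA was kept. It was -0.59 (adjusted p = 0.0649) when counts were summed, not a call. Among names counted in every library, summed counts gave -0.59 (adjusted p = 0.0235). Each of these sums added the counts of ipu-miR-222a to the controls only, since that name was at 0 in every exposed library. Apart from that addition, the cause of the changes in this paragraph was not tested.

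The groups share replicate numbers, and deviations from the group means correlated between same-numbered samples at r = 0.12, 0.19 and 0.03. Between samples of different numbers r ran from -0.31 to 0.17. With 3 samples in a group these values cannot decide whether same-numbered samples share a spawn or tank. Not every sample correlated best with its own number. A replicate block gave 7 calls for names counted in every library, 0 when all names were fitted and 37 differences between the oils.

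With 3 libraries in a group and at most 4346165 counts in an exposed library, a single count weighs more in the exposed group. The smallest change of a low name that is called at this depth was not tested.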
